A study of Mus musculus with 2 samples.

Results

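The population described here is the cycling, non-goblet epithelium of the mouse colon in mice given dextran sulfate sodium (DSS), which damages that epithelium and is used to model colitis. Its members were chosen by a rule on UMI counts (unique molecular identifiers, each standing for 1 captured RNA molecule). A cell barcode needed 500 UMIs or more, 200 genes or more and no more than 25% of UMIs from mitochondrial genes. The 6 epithelial genes Epcam, Krt8, Krt18, Krt19, Cldn7 and Lgals4 had to hold at least 0.5% of its UMIs with at least 4 of them detected. At least 4 of the 6 proliferation genes Mki67, Top2a, Pclaf, Rrm2, Ube2c and Ccna2 had to be detected, and 8 goblet genes (Muc2, Zg16, Fcgbp, Clca1, Tff3, Spink4, Agr2 and Retnlb) had to hold under 2% of UMIs. Of 18647 barcodes in 2 libraries, 77 met the rule. All 77 lay in the wild-type library and 0 in the library labelled Elf-1 knockout.

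Single-cell RNA-seq was measured in C57BL/6 mice, 8 to 10 weeks old, and every mouse had received DSS, so that the data hold no untreated control. Group 1 was wild type and group 2 carried the label Elf-1 KO, also written Elf-1-/-, and each was 1 library that pooled colon cells of 3 mice. Proximal colon, distal colon and rectum were digested together and captured on Singleron GEXSCOPE microchips. The sources used here do not give the DSS dose, how long it was given or which part of Elf1 was deleted. Each group being 1 library, and no barcode being traced to its mouse, no difference could be tested, and "higher" or "lower" compares sums of UMIs.

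The colonic epithelium renews itself from the base of its crypts. Stem cells there, marked by Lgr5 and kept by Wnt signals, give rise to progenitors that divide several times while they move upward, and their daughters become absorptive colonocytes, goblet cells, enteroendocrine cells or tuft cells. A dividing cell copies its DNA with the MCM helicase, polymerases and the clamp PCNA, then separates the chromosomes with cyclin B, CDK1 and the kinases and motors of the spindle. After injury the epithelium regenerates, and part of that response is a programme that includes Ly6a and Clu.

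The libraries held 32481613 UMIs (wild type) and 39750319 (labelled knockout), and the members held 1400395. Elf1 (ENSMUSG00000036461, chromosome 14, 79481194 to 79582494, plus strand, GRCm38) gave 171 UMIs in the members, a level of 122 CPM (UMIs of the gene per 1000000 UMIs). In non-epithelial barcodes it stood at 207 CPM in the wild-type library and 181 CPM, from 6955 UMIs, in the other, so that its counts do not check the knockout label. The libraries shared 57 barcode sequences, none of them a member's. Markers of other lineages were low but present in members: 22 such markers together held 0.0622% of member UMIs, 0.0448% in non-cycling epithelium and 0.992% in non-epithelial barcodes. Of the 77 members, 40 held at least 3 of these markers and 7 held none of them. Of 572 barcodes of non-cycling epithelium, 133 held at least 3. Detection of 3 markers is easier in a deep barcode, and the median was 17593 UMIs in members against 1968.5 there. The endothelial marker Cdh5 was at 0. Fibroblast genes were the most frequent, with at least 2 of 4 in 47 members, and Dcn stood at 151 CPM in members, 128 CPM in non-cycling epithelium and 3351 CPM in non-epithelial barcodes.

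A member held a median of 17593 UMIs (732 to 52969) and 4316 genes, with a median of 3.93% mitochondrial UMIs (0.602% to 22%). Detection of 4 genes is easier in a deep barcode, and the members were deeper than the other epithelium. The 572 non-goblet epithelial barcodes with 0 or 1 proliferation gene and without an enteroendocrine profile, called non-cycling epithelium below, had a median of 1968.5 UMIs. The 106 with 2 or 3 of the genes, called intermediate, had 3753. Of non-goblet epithelial barcodes with at least 5000 UMIs, 64 of 271 were members (23.6%, exact Clopper-Pearson 95% interval 18.7% to 29.1%), and of those under 5000 UMIs 13 of 512 (2.54%, 1.36% to 4.30%). All intervals here cover counting error only, not the spread between mice.

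The genes of the rule fixed what the members are and are given as a description. The epithelial genes held between 0.576% and 4.15% of UMIs in a member, with a median of 1.71%. The proliferation genes held between 0.0178% and 0.689%, and 29, 19 and 29 members had 4, 5 and 6 of them. Krt8 stood at 5888 CPM, Epcam at 1631 CPM, Mki67 at 527 CPM, Ube2c at 531 CPM, Pclaf at 234 CPM, Ccna2 at 221 CPM and Rrm2 at 137 CPM in the members' summed UMIs. Among proliferating barcodes the goblet limit fell in a gap, while the values on either side of the epithelial limit lay close together. The member with the lowest epithelial share had 0.576%, and the highest proliferating barcode below the limit had 0.489%. The highest goblet share of a member was 0.615% and the lowest of a proliferating goblet barcode 2.79%. Without regard to proliferation there was no such gap: the share reached 1.96% in non-cycling epithelium and began at 2.02% in goblet barcodes. The limit of 4 genes did not fall in a gap: members with 4 genes and the 52 barcodes with 3 both had a median of 0.203% of UMIs in the proliferation genes, at 6405 and 3943 UMIs per barcode.

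Members made up 8.40% of the 917 epithelial barcodes of the wild-type library (6.68% to 10.4%) and 9.83% of its 783 non-goblet ones (7.84% to 12.1%). They were 77 of 307 barcodes there with at least 4 of the proliferation genes (25.1%, 20.3% to 30.3%). The others were 202 non-epithelial barcodes, 19 goblet barcodes and 9 with an epithelial share between the limits. The library labelled knockout held 49 epithelial barcodes, of which 46 (93.9%) had an enteroendocrine profile and 49 had 0 of the 6 proliferation genes. For members, 0 of 49 allows a share of up to 6.12% at 3 counts of the total (7.25% by the exact interval). The 3 barcodes without an enteroendocrine profile had 931, 1676 and 2534 UMIs, and among them 0 of 3 allows a share of up to 70.8% (exact interval), so that a population like the members' was not detectable at this number. Of the 92 proliferating barcodes in that library, the highest epithelial share was 0.0661%. Epithelium as a whole was 11.3% of kept barcodes in the wild-type library and 0.503% in the other, and the proliferating share of non-epithelial barcodes was 3.22% (2.79% to 3.68%) and 0.956% (0.771% to 1.2%). How many epithelial cells each digestion released, and genotype, cannot be told apart in this design. No gene of the population could be compared between genotypes.

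**Figure D1:**
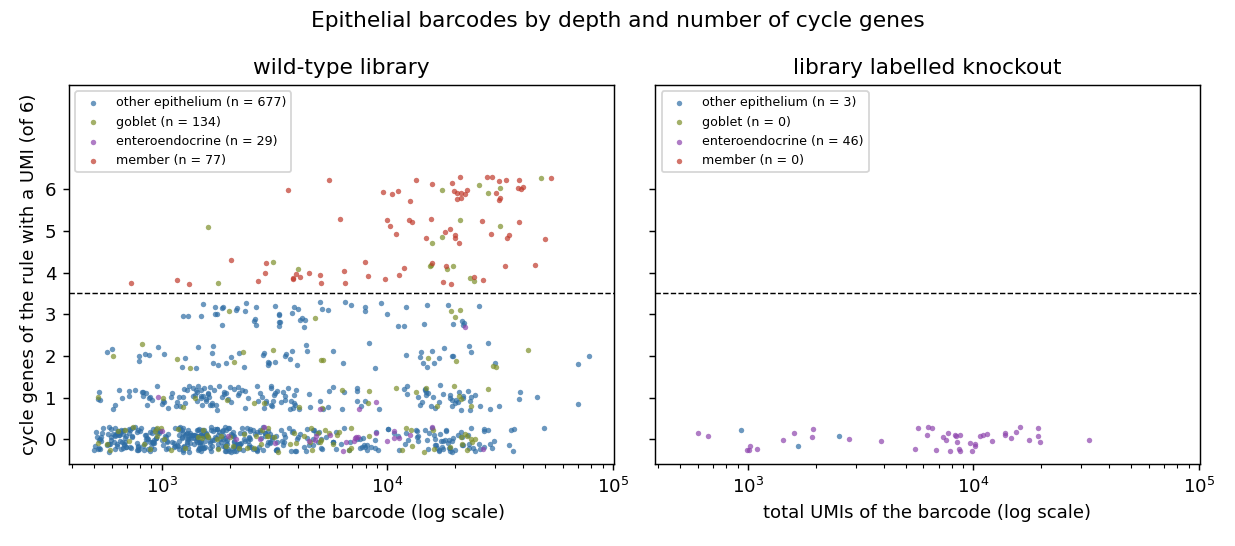
Each point is 1 epithelial barcode, by total UMIs (log axis) and number of the 6 proliferation genes detected (spread slightly for display, dashed line at the limit of 4), in the wild-type library and in the library labelled Elf-1 knockout. The 77 members lie at 4 genes or more, 64 of them at 5000 UMIs or more, while all 49 epithelial barcodes of the other library lie at 0 genes.

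Which genes set the members apart from the epithelium around them was asked by summing UMIs over the 77 members and over the 572 barcodes of non-cycling epithelium, both wild type. The summed members carried more RNA of the replication, mitosis, nucleotide and ribosome-making genes and less of absorptive, interferon-induced and antigen-presenting genes. Of 8194 genes with at least 50 UMIs over both groups, 1091 (13.3%) were at least 2-fold higher in the members' CPM and 686 (8.37%) at least 2-fold lower. The median gene stood at a log2 ratio of 0.16. Scaling by TMM (trimmed mean of M-values) in place of total UMIs moved that median to -0.07 and the split from 61.4% of past-2-fold genes higher to 42.3% higher. The rule selects on 6 genes of the same programme as the lists of replication and mitosis genes, none of which holds a gene of the rule, so that the direction of those lists follows from the choice of members and their sizes are a description.

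Genes of DNA replication were higher nearly throughout. Of 48 list genes 39 passed the minimum, 38 of them at least 2-fold higher and 0 lower, with a median log2 ratio of 2.40. Mcm6, a subunit of the replicative helicase, had 150 UMIs in members (107 CPM) and 55 in non-cycling epithelium (17.0 CPM), 6.31-fold higher (4.60 to 8.76). Clspn, which carries the checkpoint signal at the fork, was 18.5-fold higher (10.4 to 35.9), and Lig1, which joins Okazaki fragments, 6.91-fold (5.36 to 8.99). Pcna, the sliding clamp, was 3.03-fold higher (2.49 to 3.69) and was still at 57.1 CPM in non-cycling epithelium. The list gene below 2-fold was Rfc1, the large subunit of the clamp loader, at 1.96-fold (1.5 to 2.56). Nucleotide synthesis followed: 22 of 24 list genes were at least 2-fold higher (median log2 1.69), led by thymidine kinase Tk1 (127 against 6.79 CPM) and the ribonucleotide reductase subunit Rrm1 (125 against 8.33 CPM). In intermediate barcodes Mcm6 stood at 53.8 CPM and Tk1 at 31.4 CPM, between the groups.

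Mitosis lists had higher medians than the replication list, an order that the genes of the rule can bear on and that is a description. In the list of spindle and kinetochore genes 47 of 48 were at least 2-fold higher (median log2 3.53), and in the list of mitotic kinases, cyclins and their partners 20 of 22 (median log2 3.54). Cdk1, the mitotic kinase, had 332 UMIs in members and 32 in the reference (237 against 9.88 CPM), 24.0-fold higher (16.7 to 35.7), and stood at 58.3 CPM in intermediate barcodes. Its partner Ccnb1 was 28-fold higher (17.1 to 49.1) and Plk1, which drives spindle assembly, 36.7-fold (21.0 to 70.0). Birc5, of the chromosomal passenger complex, stood at 260 against 12.7 CPM. Among the 12 highest ratios under the naming rule (genes with a UMI in at least 10% of 1 group) were Esco2 (cohesin acetylation, 69 against 2 UMIs), Hmmr (spindle assembly, 145 against 6), Anln (the cytokinesis scaffold anillin, 88 against 4) and Nusap1 (spindle microtubules, 164 against 8). Ckap2l (166 against 8), Ndc80 of the kinetochore (51 against 3), Asf1b, a histone chaperone (111 against 8), Pbk (165 against 12), Shcbp1 (53 against 4) and Sapcd2 (60 against 2) were also among them, as was Plk1. Exceptions in the kinase list were Pttg1, the separase inhibitor securin, at 75 against 88.9 CPM, and Fzr1, an activator of the anaphase-promoting complex, at 66.4 against 39.5 CPM.

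Because these genes are known to share promoter elements, the promoters of the highest 4 genes of the mitosis lists with an entry are shown. The sequences are from RefSeq (GRCm38.p6), from 250 bases before the start to 50 after, 5′ to 3′ on the gene's strand, and capitals mark the words found. The words searched, on both strands, were TTTGAA (the core of the cell cycle homology region, or CHR), CCAAT, TTTCGCGC, TTTGGCGC, TTTCCCGC and TTTGCCGC (E2F-type words) and TATAAA, and no match shown overlaps another. The regions are chr11:40733388-40733687 (minus strand) for Hmmr, chr9:22389157-22389456 (minus) for Anln, chr2:129297163-129297462 (minus) for Ckap2l and chr2:119618048-119618347 (plus) for Nusap1.
Hmmr: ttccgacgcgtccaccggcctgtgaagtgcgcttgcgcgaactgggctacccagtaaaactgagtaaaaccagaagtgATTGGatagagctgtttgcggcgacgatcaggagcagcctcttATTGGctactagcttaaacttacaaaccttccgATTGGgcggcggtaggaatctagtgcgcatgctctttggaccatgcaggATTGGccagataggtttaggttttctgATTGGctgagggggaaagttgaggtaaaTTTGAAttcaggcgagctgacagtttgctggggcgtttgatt
Anln: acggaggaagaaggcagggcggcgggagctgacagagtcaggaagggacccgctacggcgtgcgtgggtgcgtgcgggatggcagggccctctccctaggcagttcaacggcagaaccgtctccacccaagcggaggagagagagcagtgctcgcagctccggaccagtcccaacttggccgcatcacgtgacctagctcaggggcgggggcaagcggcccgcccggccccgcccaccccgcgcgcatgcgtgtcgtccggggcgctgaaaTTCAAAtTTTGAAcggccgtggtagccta
Ckap2l: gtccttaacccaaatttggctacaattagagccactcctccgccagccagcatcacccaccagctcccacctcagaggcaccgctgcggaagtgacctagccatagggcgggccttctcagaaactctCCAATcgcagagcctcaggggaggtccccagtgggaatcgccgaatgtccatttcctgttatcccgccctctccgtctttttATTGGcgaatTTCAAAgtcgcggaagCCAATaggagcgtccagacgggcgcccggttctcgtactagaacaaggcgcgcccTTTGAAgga
Nusap1: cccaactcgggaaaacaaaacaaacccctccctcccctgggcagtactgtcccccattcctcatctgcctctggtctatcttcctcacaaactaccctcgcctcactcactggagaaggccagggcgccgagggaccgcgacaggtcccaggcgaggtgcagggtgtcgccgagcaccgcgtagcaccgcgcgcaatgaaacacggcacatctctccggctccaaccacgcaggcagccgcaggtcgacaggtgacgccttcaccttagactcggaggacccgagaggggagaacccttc
Hmmr held TTTGAA 8 bases after the start and CCAAT, read on the other strand, at 5 places upstream. Anln held the CHR word 21 and 28 bases after the start, once on each strand. In Ckap2l the same word stood 41 bases after the start and, on the other strand, at -30, with CCAAT words at -122, -40 and -14. The Nusap1 window held none of the words. Of the 91 genes of the mitosis lists 74 matched, with 80 promoters, and 62.5% of these held the CHR word against 17.9% of all 32851 promoters in the table and 15.2% of the 46 promoters of the replication list. CCAAT was in 67.5% of mitosis promoters, 60.9% of replication promoters and 37.4% of all. E2F-type words were in 37.0% of replication promoters, 10.0% of mitosis promoters and 2.26% of all. A match is a description of letters in these windows.

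**Figure D2:**
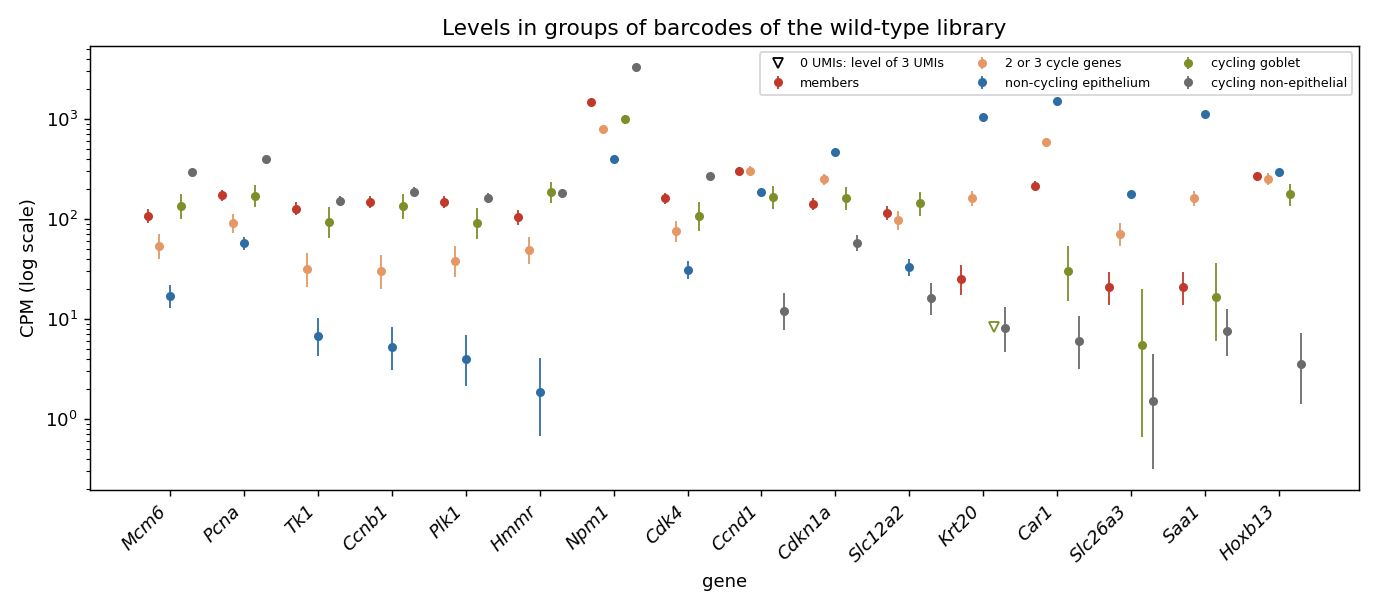
Levels (CPM of summed UMIs, log axis, bars for exact Poisson 95% intervals) of 16 genes in members, intermediate barcodes (2 or 3 cycle genes), non-cycling epithelium, cycling goblet and cycling non-epithelial barcodes of the wild-type library, with an open triangle at the level of 3 UMIs for a gene at 0. Ccnb1 is lower in intermediate barcodes (30.3 CPM) than in members (147 CPM) and lower again in non-cycling epithelium (5.25 CPM), and Krt20 runs the other way.

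Genes that make ribosomes were higher as well. Of 35 list genes with enough UMIs, 32 were at least 2-fold higher and 0 lower (median log2 1.68). The nucleolar proteins Npm1 (1478 against 402 CPM) and Ncl (1323 against 331 CPM, 4.0-fold, 3.70 to 4.31) were abundant, and Nolc1 and the H/ACA ribonucleoprotein gene Gar1 were 4.65-fold and 4.94-fold higher. A UMI of Ncl was found in 100% of members and 51.9% of the shallower reference. In the list of chromatin proteins 22 of 31 were at least 2-fold higher (median log2 1.77), among them Hmgb2, a DNA-bending protein, at 903 against 144 CPM and Hmgb1 at 1136 against 301 CPM. Translation and polyamine genes were higher to a lesser degree, 10 of 33 past 2-fold (median log2 0.87). The serine synthesis enzyme Phgdh was highest there (54.3 against 5.86 CPM), and Odc1, the first enzyme of polyamine synthesis, stood at 80 against 41.7 CPM. The mitochondrial chaperones Hspd1 and Hspe1 were 3.40-fold and 2.57-fold higher, while the 24 chaperone and stress genes as a list had a median log2 of 0.09 that became -0.14 under TMM. Histone genes had 6 of 21 past 2-fold (median log2 0.67), Hist1h2ab at 45 against 6.79 CPM; replication-dependent histone messages lack poly(A) tails as a rule, and how the kit captured them was not given.

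Genes that start the cycle were less uniform than those that carry it out. Of 14 G1/S list genes 5 were at least 2-fold higher (median log2 0.74). Cdk4, the kinase that pairs with D cyclins, was 5.18-fold higher (4.08 to 6.61) and Cks1b 14.7-fold (9.21 to 24.5). Ccnd1, a D cyclin and a Wnt target (ENSMUSG00000070348, chromosome 7, 144929931 to 144939925, minus strand), had 423 UMIs in members and stood at 302 CPM there, 303 CPM in intermediate and 185 CPM in non-cycling epithelium. Myc stood at 92.8 against 54.6 CPM (log2 0.77), but at a log2 ratio of -0.57 once barcodes with 3 or more markers of other lineages were left out. Among inhibitors of the cycle 4 of 14 were at least 2-fold lower and 1 higher. Cdkn1a, which encodes p21, had 197 UMIs in members and 1527 in the reference (141 against 471 CPM), 3.35-fold lower (2.89 to 3.91), and Ccng2 was 4.22-fold lower (3.36 to 5.37). Cdkn2d, encoding p19, was the list gene on the other side, at 35.7 against 11.1 CPM. Of 18 p53 and repair genes with enough UMIs 7 were at least 2-fold higher and 3 lower (median log2 0.69, but -0.79 without the mixed barcodes), and among the lower the p53 target Gadd45a stood at 51.4 against 179 CPM.

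The label calls the cells undifferentiated, and the crypt-base genes give a mixed account of that. Lgr5 (ENSMUSG00000020140, chromosome 10, 115450311 to 115587780, minus strand) and Olfm4 had 0 UMIs in members, which allows up to 2.14 CPM for each. Lgr5 had 7 UMIs among all barcodes of the wild-type library and 6 in the other, so it was barely captured anywhere. Axin2, a Wnt feedback gene, had 23 UMIs in 14 members (16.4 CPM) against 6.79 CPM in non-cycling epithelium, and Ascl2, a transcription factor of crypt-base cells, 17 UMIs in 7 members (12.1 against 3.70 CPM), and both are below the 50-UMI minimum. In cycling non-epithelial barcodes, at a median of 7761 UMIs, Axin2 had 0 UMIs and Ascl2 was seen in 0.495%. A total of 17 members held either gene, and 1 of these 17 also held Krt20. Of all 77 members 11 (14.3%) held Krt20, so that no separation of these genes can be read from counts this small.

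Of 21 crypt-base and progenitor genes with enough UMIs 4 were at least 2-fold higher and 3 lower (median log2 0.54). Cdca7, a replication-linked chromatin factor (ENSMUSG00000055612, chromosome 2, 72476159 to 72486893, plus strand), had 61 UMIs in members and 33 in the reference. Its levels were 43.6 and 10.2 CPM, 4.28-fold higher (2.76 to 6.75). The ion cotransporter gene Slc12a2 stood at 114 against 32.7 CPM (3.49-fold, 2.72 to 4.51) and Hopx at 42.1 against 13.0 CPM. In intermediate barcodes Slc12a2 stood at 97.6 CPM and Hopx at 53.8 CPM, close to the members. Sox9, a factor of crypt progenitors, was close to level at 87.1 against 67.0 CPM and had the other sign without mixed barcodes. The list as a sum held less of the members' UMIs (0.205%) than of non-cycling epithelium (0.251%), the opposite of its median: Aqp4 (677 against 908 CPM) and Clca4b (22.1 against 433 CPM) weigh most in that sum, and Clca4b is a colonocyte gene that the list held. Without mixed barcodes the median was -0.21, with 1 gene higher and 3 lower of 16. Nox1, a colonic NADPH oxidase, had 34 UMIs in members and 6 in the reference, a gene under the minimum and named after its values were seen.

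Absorptive genes were the reverse of the cycle genes. Of 49 list genes 32 were at least 2-fold lower and 0 higher (median log2 -1.69). Krt20, a keratin of the differentiated crypt top (ENSMUSG00000035775, chromosome 11, 99428403 to 99438150, minus strand), had 35 UMIs in 11 members and 3411 in the reference (25 against 1053 CPM), 42.1-fold lower (30.2 to 60.6), and 14 of the 35 came from 1 member. Its level in cycling non-epithelial barcodes was 8.09 CPM. Car1, a carbonic anhydrase of colonocytes, stood at 213 against 1505 CPM, the chloride-bicarbonate exchanger Slc26a3 at 20.7 against 176 CPM and the hormone precursor Guca2a at 271 against 2208 CPM. Slc37a2 had 1 UMI against 215, a ratio of 0.0108 (0.000271 to 0.0606). Aqp8, a water channel, had 0 against 82 UMIs, at least 11.8-fold lower at a floor of 3 UMIs over the group, and 42 of the 82 came from 1 barcode.

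Even so, members carried colonocyte RNA. Absorptive list genes held 1.2% of member UMIs, 1.73% in intermediate, 3.42% in non-cycling, 0.693% in cycling goblet and 0.0481% in cycling non-epithelial barcodes. Lypd8, a secreted protein that keeps bacteria from the mucosa, stood at 3900 CPM in members, 5101 CPM in intermediate and 13511 CPM in non-cycling epithelium. It was detected in 93.5% of members and in 47.0% of cycling non-epithelial barcodes, where it stood at 78.9 CPM. The brush-border genes Ceacam20 (14.3-fold lower, 8.58 to 25.7) and Clca4b (19.6-fold lower, 13.7 to 28.9) and the transglutaminase gene Tgm3 (20.8-fold lower, 13.8 to 33.0) were among the 12 lowest ratios under the naming rule, which asks for a UMI in at least 10% of 1 group. Prss30 (1 against 119 UMIs), the proton pump gene Atp12a (3 against 219), Apobec1, an RNA-editing enzyme (4 against 170), and Ptprh (4 against 145) were also among them. Bmp2, a ligand made toward the crypt top, stood at 20 against 132 CPM.

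Interferon, class II and antimicrobial genes were lower in members. Of 44 interferon genes 24 were at least 2-fold lower and 0 higher (median log2 -1.13), Ifit3 at 7.85 against 71.9 CPM. Of the class I genes, H2-D1 stood at 2197 against 3497 CPM and B2m at 1678 against 2711 CPM. Of 9 genes of MHC class II presentation 5 were at least 2-fold lower and 0 higher (median log2 -1.01), or 8 of 9 under TMM. The invariant chain Cd74 stood at 1285 against 2537 CPM, and it is far higher in non-epithelial barcodes, at 11185 CPM. In members the class II list ranged from 0.0169% to 2.75% of UMIs with a median of 0.0944%, and 4 members exceeded 1%. The highest of them held 7 of the 22 markers of other lineages. Myeloid genes were lower too, 6 of the 6 with enough UMIs of 14 (median log2 -1.41), S100a8 at 30.7 against 219 CPM. Their part in the interferon, class II and antimicrobial values was not tested.

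Of 46 antimicrobial and inflammation genes 19 were at least 2-fold lower and 1 higher (median log2 -0.75). Saa1, the acute-phase protein serum amyloid A (ENSMUSG00000074115, chromosome 7, 46740497 to 46742980, minus strand), had 29 against 3600 UMIs, 53.7-fold lower (37.3 to 80.2). Sectm1b (2 against 252 UMIs), the interferon-induced gene Herc6 (2 against 105) and the inflammasome sensor Nlrp9b (3 against 91) were likewise among the 12 lowest. The list gene on the high side was Reg3b, an antibacterial lectin, with 231 UMIs, of which 229 came from 1 member, and without it the level was 1.45 CPM. For Reg3g 201 of the 246 reference UMIs came from 1 barcode. Genes of the regenerating or fetal-like state were not higher: 11 of 37 were at least 2-fold lower and 2 higher, Itga2 and Phlda2 (median log2 -0.67). Ly6a, which encodes Sca-1, had 2055 UMIs in members (1467 against 3268 CPM, 2.23-fold lower, 2.12 to 2.34), and a UMI of it was found in 92.2% of members.

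Energy, position and ETS genes mostly stayed within 2-fold. Of 55 oxidative phosphorylation genes 0 passed 2-fold in either direction (median log2 -0.01), with Ndufa4 highest at 778 against 472 CPM. Glycolysis genes had 3 of 26 lower (median log2 -0.40), Hk2 at 152 against 383 CPM, and fatty acid and ketone genes 4 of 26 lower, with the carnitine carrier Slc25a20 at 20 against 110 CPM. Regional identity factors lay within 2-fold for the most part: Cdx1 stood at 579 against 364 CPM and Hoxb13 at 267 against 298 CPM, and 2 of 13 genes of that list were past 2-fold, both lower. Of 11 ETS factor genes 0 were past 2-fold; Elf3 stood at 1197 against 1563 CPM, Ehf at 271 against 257 CPM and Elf1 at 122 against 118 CPM.

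**Figure D3:**
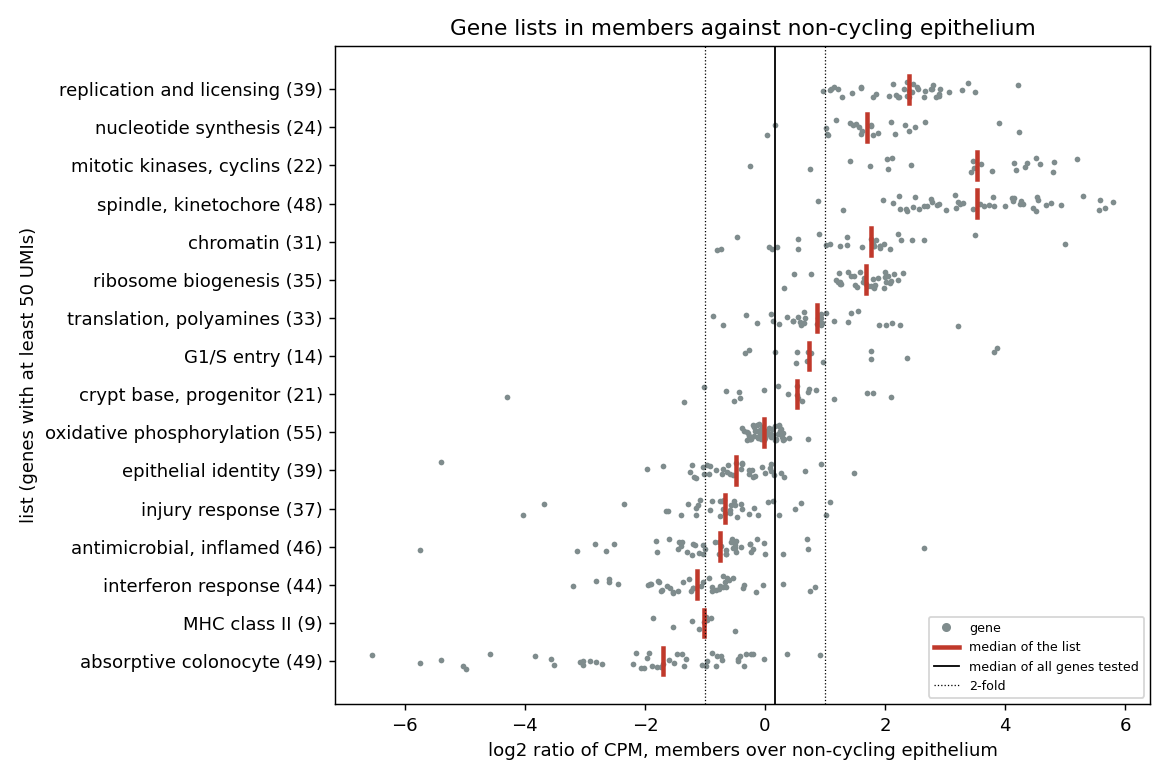
For each gene list, the log2 ratio of CPM of its genes with at least 50 UMIs, members against non-cycling epithelium, with grey points for genes, red marks for list medians, a line at the median of all genes and dotted lines at 2-fold. The spindle, mitosis and replication lists have medians of 3.53, 3.54 and 2.40, and the absorptive and interferon lists -1.69 and -1.13.

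Depth differed between these groups, so the comparison was repeated with only reference barcodes of at least 5000 UMIs, chosen after the data had been seen. Replication genes were then 35 of 36 higher, spindle genes 45 of 46 higher, ribosome-making genes 31 of 33 higher, absorptive genes 35 of 49 lower and interferon genes 24 of 44 lower. Without the barcodes holding 3 or more markers of other lineages, called mixed here, 37 members remained. The counts were then 16 of 17, 31 of 31, 24 of 30, 29 of 47 and 19 of 44. Holding 3 markers is easier in a deep barcode, so that this filter also selects on depth. Fibroblast RNA moved with the members in the full sums: Col3a1 stood at 196 against 100 CPM and Col1a1 at 80.7 against 30.6 CPM, and 78 of the 113 Col1a1 UMIs came from 1 member. The part of these barcodes in other results was not tested beyond these counts.

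A second reference asked what the members share with the other dividing cells of the epithelium, the 19 cycling goblet barcodes of the same library, which were as deep (median 18290 UMIs). Of 5328 genes 562 (10.5%) were at least 2-fold higher in members and 355 (6.66%) lower. Against all 134 goblet barcodes, cycling or not, it was 971 of 6603 higher (14.7%) and 480 lower (7.27%). The mitotic lists had 0 of 50 and 0 of 21 genes past 2-fold in either direction, with medians of -0.08 and 0.24. The replication list had 2 of 37 higher. Both groups had been chosen by at least 4 of the same 6 proliferation genes. Closeness in cycle genes was thus favoured by the choice of groups and is a description. Ccnb1 stood at 147 CPM in members and 135 CPM in cycling goblet barcodes, and Hmgb2 at 903 and 865 CPM. Slc12a2 stood at 114 and 143 CPM and Sox9 at 87.1 and 146 CPM. The 2 populations were split by the goblet limit, so that the direction of other goblet genes follows from the choice of groups. Of those outside the rule, 24 of 24 were lower in members (median log2 -4.08). Atoh1 and Spdef, given next, likewise passed the 50-UMI minimum through the goblet barcodes. Among Notch and secretory lineage factors 10 of 13 were lower; Atoh1, the factor that commits cells to the secretory lineage, had 2 UMIs in members and 99 in the 19 cycling goblet barcodes (1.43 against 273 CPM), and Spdef 3 and 79. Hes1, the Notch target that opposes Atoh1, was level at 283 and 289 CPM. Creb3l1, a factor of secretory capacity, was lower in members but present, at 208 against 614 CPM.

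Toward the absorptive side the members were higher than the cycling goblet barcodes. Of 32 absorptive genes 15 were at least 2-fold higher in members and 3 lower (median log2 0.74), Car1 at 213 against 30.3 CPM and Lypd8 at 3900 against 1052 CPM. Aqp4 stood at 677 against 93.7 CPM. All 5 class II genes with enough UMIs were higher in members (median log2 1.62), Cd74 at 1285 against 267 CPM, and so were 15 of 32 interferon genes, with 2 lower. Markers of other lineages moved the same way here: of 11 stroma genes the 5 with enough UMIs were higher (median log2 2.07), and of 15 B cell genes 3 of 7, with a part in the class II and interferon values that was not tested. Ly6a stood at 1467 against 592 CPM. Guca2a, made by goblet cells and colonocytes, was the other way, at 271 against 752 CPM. Against all 134 goblet barcodes the medians of these lists were lower. Of class II genes 1 of 7 was then higher and 0 lower (median log2 0.44). Interferon genes had 4 of 39 higher and 3 lower (median log2 0.006), and absorptive genes 16 of 37 higher and 5 lower (median log2 0.28). Cd74 stood at 810 CPM in all goblet barcodes.

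The comparison with the 202 cycling non-epithelial barcodes of the same library asked what is epithelial about the members' cycle. Of these 154 carried B cell markers. Of 7524 genes 1604 (21.3%) were at least 2-fold higher in members and 1158 (15.4%) lower, with a median log2 of 0.03 and, under TMM, of -0.05. The reference had been chosen for an epithelial share under 0.1%, so that epithelial genes reach the minimum through the members and their direction follows from the choice of groups. Epithelial identity genes outside the rule had a median log2 of 6.29 over the 34 of 40 that passed. Among the 12 highest ratios under the naming rule were Gpx2, a glutathione peroxidase of the gut epithelium (4705 against 22 UMIs), the crypt transcription factor Klf5 (930 against 5), Aqp4 (948 against 5), Mgat4c (347 against 1), Duoxa2, the maturation factor of an epithelial oxidase (296 against 1), and the desmosomal cadherin Dsg2 (264 against 1). Of 20 regional factors 8 passed the minimum, likewise through the members, among them Cdx1 with 811 against 6 UMIs and Hoxb13 with 374 against 7. Lymphocyte genes stood among the 12 lowest, in a reference mostly of B-marked barcodes: Mef2b (2 against 466 UMIs), Vpreb3 (5 against 768), Tnfrsf13c, the BAFF receptor (3 against 446), and granzyme Gzmb (3 against 398). The linker histone gene H1fx (1 against 198 UMIs) was also among the 12. So was Mcpt1, a mast cell protease (34 against 4421 UMIs), which was at a log2 ratio of 0.36 against the B-marked barcodes alone.

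The cycle genes themselves were not the same in both. Replication genes were lower in members, 31 of 45 at least 2-fold and 0 higher (median log2 -1.35). Mcm2 stood at 94.3 against 410 CPM, 4.35-fold lower (3.61 to 5.27), Cdc6, which loads the helicase, was 5.52-fold lower (3.41 to 9.43), and Pcna stood at 173 against 396 CPM. Mitotic kinases and cyclins lay closer, 4 of 31 lower and 0 higher (median log2 -0.37): Cdk1 stood at 237 and 217 CPM, a ratio of 1.10 (0.946 to 1.27). Of 58 spindle genes 22 were lower and 1 higher, which was Anln at 62.8 against 27.8 CPM. The same number of proliferation genes had been required at a median of 17593 UMIs in members and 7761 in the non-epithelial barcodes, a difference whose part in this was not tested. With each barcode thinned to 1000 UMIs, the median share of the replication list was 0.25% and 0.7%, and that of the mitotic kinase list 0.3% and 0.4%.

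Genes of cycle entry were lower in 8 of 18 cases and higher in 1 (median log2 -0.74). The higher one was Ccnd1, which had 423 UMIs in members and 24 in cycling non-epithelial barcodes (302 against 12.1 CPM), 24.9-fold higher (16.5 to 39.3). Myc was 4.14-fold lower (3.43 to 5.02) and Cdk6 5.41-fold lower (3.09 to 10.2). Of 14 cycle inhibitors 7 were higher and 2 lower, Cdkn1a at 141 against 58.2 CPM and Tob1 at 311 against 25.3 CPM. In the chaperone and stress list, which joins heat shock and immediate-early genes, 14 of 24 were higher and 0 lower, Atf3 at 2284 against 110 CPM and Fos at 3575 against 792 CPM; immediate-early genes are known to respond to tissue digestion, whose part was not tested. Of 55 oxidative phosphorylation genes 16 were higher and 0 lower, Cyc1 at 663 against 214 CPM. Elf1 was 2.52-fold lower (2.13 to 3.01), at 122 against 308 CPM, and Elf3, the epithelial ETS factor, 1197 against 11.1 CPM. Class II genes, which B cells express, were lower in 11 of 12 cases.

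Among the 77 members the spread was wide. The replication list held between 0% and 0.826% of UMIs (median 0.212%), the spindle list between 0.152% and 2.36% (median 0.820%), the absorptive list between 0% and 3.0% (median 0.960%) and the interferon list between 0.137% and 3.45% (median 0.829%). The 6 mitotic genes Ccnb1, Cdc20, Plk1, Aurka, Cenpf and Cenpe were all detected in 21 members, at least 3 in 52 and none in 7. None of them is a gene of the rule, but the rule selects on genes of the same programme. UMIs of the mitosis lists outnumbered those of the replication and nucleotide lists in 67 of 77 members, and 28 members lay within 2-fold of equality. The 10 members on the other side held more replication and nucleotide than mitosis UMIs. The lists differ in size (91 mitosis, 48 replication and 28 nucleotide genes), so that equality of UMIs marks no phase. No phase was assigned to any member, since detection follows depth.

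**Figure D4:**
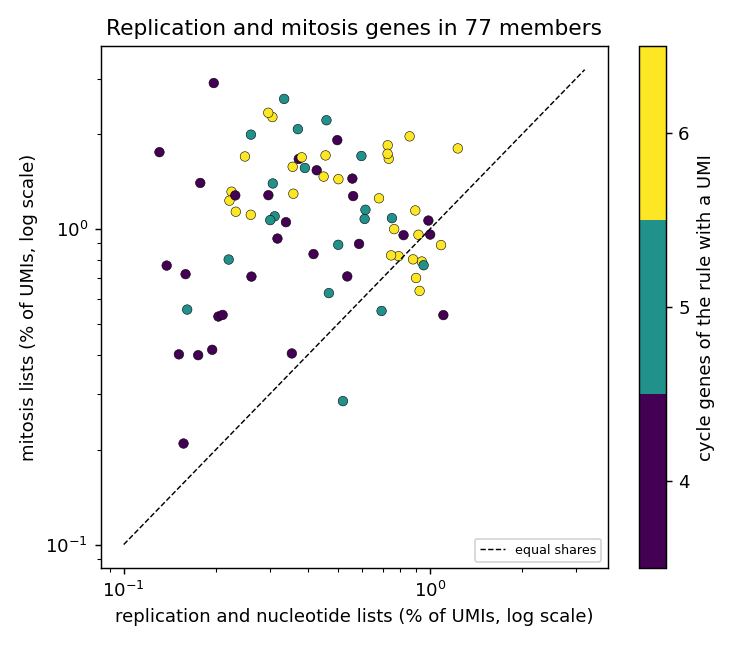
Each point is 1 member, by the percent of its UMIs from the replication and nucleotide lists (horizontal) and from the mitosis lists (vertical), both on log axes, with a dashed line of equality and colour for the number of proliferation genes detected. Medians are 0.427% and 1.10%, and 67 of 77 points lie above the line.

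To remove depth, each barcode was thinned at random to 1000 UMIs, which left out 1 member and 118 of 572 reference barcodes. The median share of the spindle list was then 0.8% of UMIs in members and 0.1% in non-cycling epithelium, of the replication list 0.25% and 0%, and of ribosome-making genes 0.5% and 0.1%. For the absorptive list it was 0.9% and 1.9%, and for the interferon list 0.8% and 1.3%. The crypt-base list stood at 0.2% in both. The groups overlapped for every one of these lists: the highest non-cycling barcode reached 1.7% for the spindle list, and the lowest member had 0% of it. A share of 0.1% is 1 UMI at this depth.

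**Figure D5:**
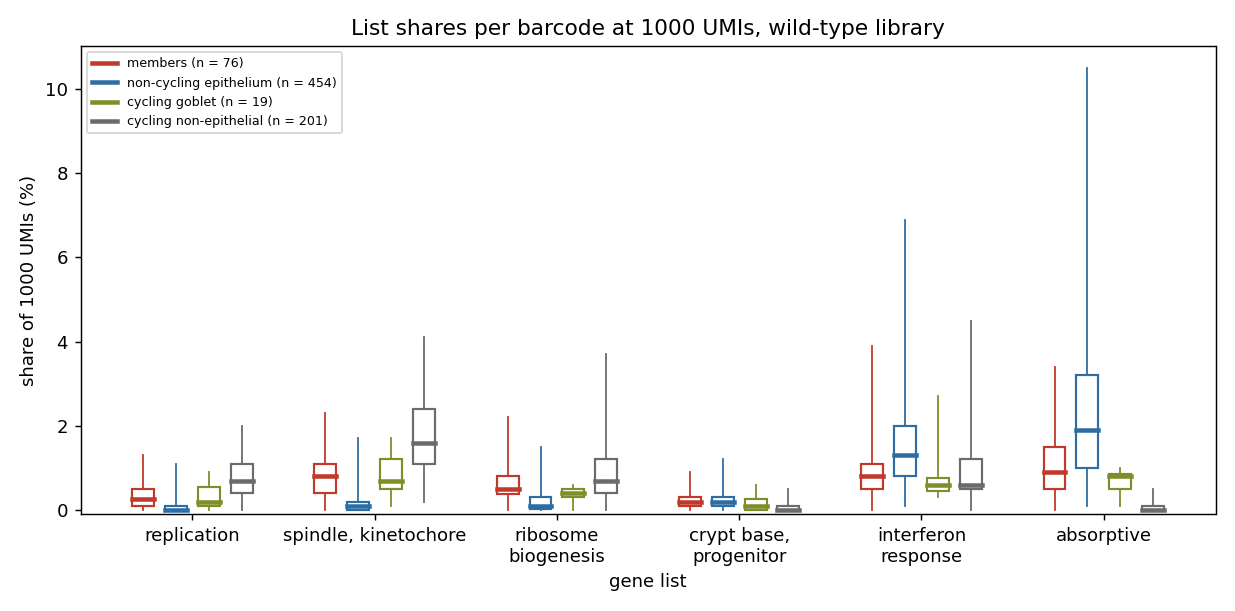
Percent of 1000 thinned UMIs per barcode held by the gene lists in members, non-cycling, cycling goblet and cycling non-epithelial barcodes, with boxes for the quartiles, thick lines for the median and thin lines from lowest to highest. Members have a median of 0.8% for the spindle list and 0.9% for the absorptive list, against 0.1% and 1.9% in non-cycling epithelium.

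Ranked by the Fano factor (variance over mean of thinned UMIs) among 135 genes with enough UMIs and outside the cycle lists, the genes that varied most between members were Malat1 (11.7), Crip1 (3.53), Lypd8 (3.25), Dmbt1 (2.37), Jun (2.19) and Ly6a (2.15), where the median gene had 1.30. Malat1 is a nuclear RNA and Jun an immediate-early gene. Lypd8 was detected in 63 of 76 thinned members, with up to 15 UMIs in a member. Genes of other lineages also varied. The stroma list held 2.51% of UMIs in the highest member and over 0.5% in 3, against a median of 0.0207%, and the B cell list held 15.3% and 6.25% in the highest pair, against a median of 0.451%.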

How the data were processed

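The deposited values are whole-number UMI counts of genes in barcodes, which the authors had not scaled. Per the submitters' processing notes, cutadapt 1.17, STAR 2.6.1a and featureCounts 2.0.1 were used with the GRCm38 genome. The files list 26425 and 25467 genes, 23197 of them in both, and 8635 and 10012 barcodes, each with at least 500 UMIs. The barcode limits left 8124 and 9734.

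UMIs were summed over the barcodes of a group and expressed as CPM with exact Poisson intervals. Ratios carry exact conditional binomial intervals at 95%, and a count of 0 was taken as 3. Genes with at least 50 UMIs over both groups and a ratio of at least 2-fold are counted as higher or lower; with 1 library per group no test was made. Named genes are the 12 highest and 12 lowest ratios among genes listed in both files, with a UMI in at least 10% of 1 group and an interval that excludes 1, leaving out genes of the rule, mitochondrial, ribosomal, immunoglobulin, T cell receptor, sex-linked and other-lineage genes, plus the extreme and most abundant genes of each list. Members and lists were chosen with earlier results of these data known. Doublets were scored by scrublet in scanpy 1.11.5 (expected rate 0.06), which called 2 barcodes (0.0246%) in the wild-type library and so did not work there, and 260 (2.67%) in the other. None were removed, and an alternative left out the 406 wild-type barcodes with the highest scores, 7 of them members. TMM factors are from edgeR 4.0.16 in R 4.3.3, the rest from python 3.11.15, numpy 2.4.6, pandas 2.3.3, scipy 1.17.1 and matplotlib 3.10.9. The scripts were tested on simulated counts. Coordinates are from GENCODE on GRCm38, promoters from RefSeq (GRCm38.p6). Reads of a gene and an overlapping or near-identical gene may not be told apart. Some genes that the naming rule selects are not reported here.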

Additional observations from a re-analysis of the deposited data

How the results depend on the processing

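No paired analysis was possible because each group is 1 library and the number 1 in both labels marks no shared source; leaving out a replicate was likewise impossible, and with 0 members in the library labelled knockout the TMM and thinned alternatives of the genotype comparison gave no value. The member count was 0 in that library under every setting tried. In the wild-type library a limit of 3 proliferation genes gave 129 members (14.1% of epithelial barcodes), a limit of 5 gave 48 (5.23%), and leaving out barcodes with 3 or more markers of other lineages gave 37 (5.63%). Other UMI and mitochondrial limits, other epithelial and goblet limits and the doublet rule kept the count within 1.5 times. Thinning and the removal of barcodes leave fewer genes past the 50-UMI minimum: 1735 (thinned) and 5867 (without mixed barcodes) of 8194 against non-cycling epithelium, and 922 (thinned) and 6235 of 7524 against cycling non-epithelial barcodes.

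Against non-cycling epithelium, genes at least 2-fold higher numbered 3038 (lower 1468) without a UMI minimum, 172 (263) at 1000 UMIs per barcode, 703 without mixed barcodes and 693 without mixed barcodes and doublet candidates, the last chosen after seeing the data. Of genes past 2-fold, 44.9% were higher by median of ratios and 52.4% without mixed barcodes, against 61.4%. List counts are given over the genes still past the minimum. Without mixed barcodes higher genes were 2 of 9 for G1/S, 16 of 17 for replication and 13 of 15 for mitotic kinases. They were 31 of 31 for the spindle, 3 of 11 for p53 and repair and 3 of 19 for histones. Lower genes were 3 of 14 for goblet, 7 of 29 for regeneration, 12 of 37 for antimicrobial and 2 of 4 for myeloid genes. With doublet candidates left out as well the higher genes were, in the same order, 2 of 9, 15 of 16, 13 of 15, 31 of 31, 3 of 11 and 3 of 18. Lower genes were then 2 of 14 for goblet, 11 of 37 for antimicrobial and 1 of 3 for myeloid genes. Thinned to 1000 UMIs, no gene of the replication, nucleotide and mitotic kinase lists (0 genes each) passed the minimum, so those lists have no value there. Higher genes were 0 of 2 for G1/S, 5 of 6 for the spindle, 1 of 6 for p53 and 1 of 11 for histones. They were 6 of 8 for ribosome-making, 4 of 15 for translation and 5 of 9 for chromatin. Lower genes, thinned, were 18 of 31 for absorptive, 1 of 5 for goblet, 6 of 21 for regeneration and 10 of 24 for antimicrobial genes. They were 12 of 29 for interferon, 2 of 5 for class II and 3 of 3 for myeloid genes. TMM, median-of-ratios scaling and members with 5 or more proliferation genes each gave 8 lower class II genes. With a minimum of 20 UMIs, or none, G1/S had 8 higher genes, p53 and repair 18 or 23, and without a minimum 10 myeloid genes were lower. A reference of at least 2000 or 5000 UMIs gave 2 lower myeloid genes, and the deeper one 13 higher histone genes.

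Some signs turned, and the cause was not tested. Fewer barcodes or genes remained in some of these settings. The p53 median of 0.69 was -0.79 without mixed barcodes, -0.76 without doublet candidates as well and -1.24 thinned, and the crypt-base median of 0.54 was -0.21, -0.31 and -0.52. The stroma median of 0.96 was -1.05 without mixed barcodes, -1.10 without both and -0.62 without doublet candidates. The chaperone median of 0.09 was -0.14 under TMM and -0.12 by median of ratios, and the vessel, glia and mast cell median of -0.80 was 0.093 with the deeper reference. Hes1 was at log2 -0.017 under TMM, -0.22 without mixed barcodes and -0.23 without both. Myc was at -0.57, -0.56 and, thinned, -0.0063, Sox9 at -0.26, -0.33 and -1.05, and Reg3g at 0.42, 0.43 and 0.70. Within these settings no UMI minimum was asked of a named gene. Thinned, Myc was seen in only 6 members and Sox9 in only 3, so no turn of sign can be read from those values. Lcn2 was at 0.82 without both kinds of barcode. Aqp8 was at 0.16 thinned, but it had no UMI in members. That value is an upper limit set by the floor, so the sign for Aqp8 cannot be told at this depth.

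Against cycling non-epithelial barcodes, higher and lower genes numbered 2430 and 1744 with a minimum of 20 UMIs, 3291 and 2366 without one and 126 and 226 thinned, and 1049 were higher without mixed members, where 44.2% of genes past 2-fold were higher against 58.1%. Thinned, and over genes still past the minimum, higher genes were 9 of 9 for epithelial identity, 2 of 4 for inhibitors and 5 of 5 for absorptive genes. They were 1 of 1 for crypt-base and 1 of 1 for regional genes. Lower genes were 3 of 4 for G1/S, 8 of 13 for replication and 1 of 4 for nucleotides. They were 12 of 20 for the spindle, 9 of 15 for chromatin and 6 of 6 for class II. Without mixed members 7 of 12 crypt-base and 4 of 4 regional genes were higher, against 14 of 19 and 8 of 8 with them. The ribosome-making median was 0.00083 by the mean over barcodes, and Mcpt1 was at 0.36 against B-marked barcodes. Depth limits the rest: at 1000 UMIs a share of 0.1% is 1 UMI, and 0 UMIs in the summed members allow 2.14 CPM.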
